A study of Mus musculus with 16 samples.

Results

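Brown adipose tissue of mice carrying an altered Ppargc1a gene was compared with that of wild-type littermates, over all 18000 genes of the authors' comparison table for this tissue. The 8 brown fat libraries of the series, out of 16 libraries in all, make up the comparison, and the other 8 come from quadriceps muscle. Of the brown fat libraries, 4 are from wild-type mice and 4 from mice homozygous for the allele labelled uORF-TAA. All mice were male C57BL/6 animals, 10 weeks of age, housed at room temperature. The allele is carried in every cell of the animal, and no further agent or allele is named in the labels for either group. Total RNA of the whole frozen tissue was sequenced as stranded mRNA libraries, so each value averages over every cell type of the fat pad. Whether both tissues of an animal were used is not in the labels.

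Ppargc1a encodes PGC-1alpha, a coactivator that docks on nuclear receptors such as PPAR and estrogen-related receptors and raises transcription of mitochondrial and thermogenic genes. In brown adipocytes it is induced by cold through beta-adrenergic receptors and cAMP, and the heat itself is made by UCP1, a carrier that lets protons return into the mitochondrial matrix without making ATP. An upstream open reading frame, or uORF, is a small coding stretch in the mRNA leader that can lower translation of the main protein, and TAA is a stop codon. A change in translation need not alter the level of the mRNA itself. The design therefore asks which mRNAs of brown fat differ when this uORF is altered.

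No value per library was analysed here. For each gene the authors' deposited table gives a mean normalized count over the 8 libraries, a log2 fold change, its standard error (SE), a Wald statistic, a p-value and, for part of the genes, an adjusted p. All errors below are that deposited SE, and intervals are 95% normal intervals from it. The table's name puts wild type first and its header names no numerator. That order was read as numerator first, so the sign was reversed here, and values above 0 mean a higher level in uORF-TAA. This is an assumption, and if it fails every brown fat direction below turns over while brown fat sizes and p-values stand. The differences from quadriceps keep their sizes and p-values only if the reading fails for both tissues. The deposited fold changes also behave as values drawn towards 0, so sizes may be understated.

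In brown fat 8 genes differed between the genotypes at an adjusted p under 0.05, the deposited DESeq2-type result with Benjamini-Hochberg adjustment. They are 0.0863% of the 9272 genes with an adjusted p in the authors' deposited table. Of these, 2 genes rose in uORF-TAA (0.0216%) and 6 fell (0.0647%). The genes that fell encode 2 transcription factors, 2 brakes on growth factor or phosphoinositide 3-kinase (PI3K) signalling, an adaptor of a ubiquitin ligase and a protein induced by FOXO factors. Those that rose encode an endothelial protein and a basement membrane chain. The plot of fold change against mean count shows how far these 8 lie from the bulk of genes.

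**Figure D1:**
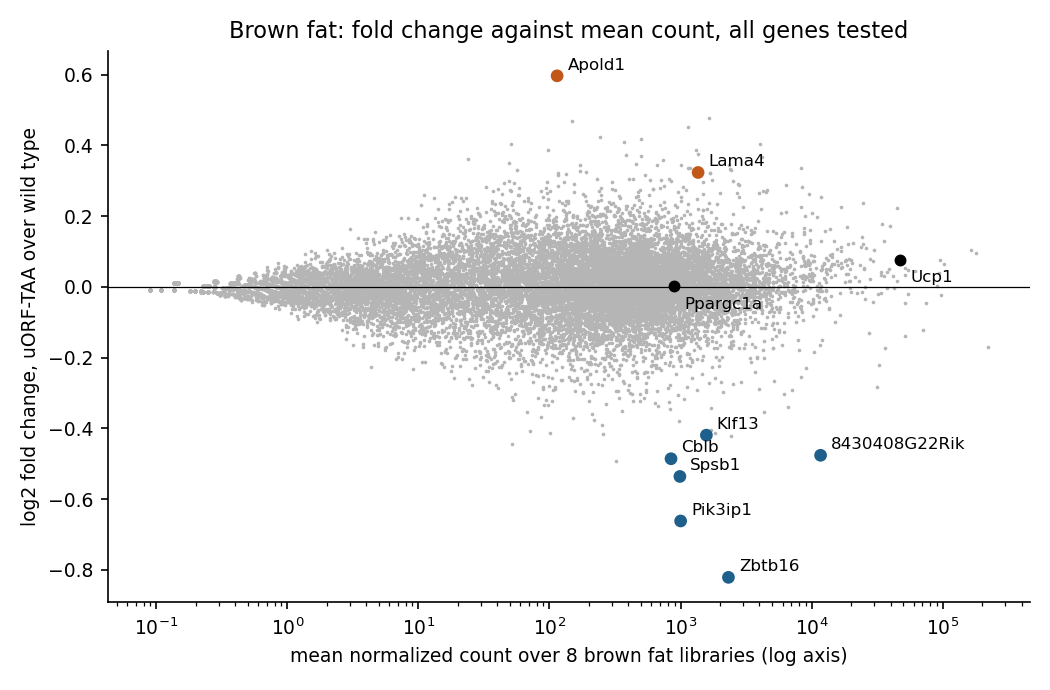
Log2 fold change in brown fat, uORF-TAA over wild type, against the mean normalized count over 8 libraries on a log axis, with 1 point per gene with a p-value (grey). The 8 genes with an adjusted p under 0.05 are coloured, 6 below 0 (blue) and 2 above (orange), and Ppargc1a and Ucp1 (black) lie at 0.0016 and 0.08.

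Zbtb16, which encodes the zinc finger transcription factor PLZF and is induced by glucocorticoids, fell most. Its log2 fold change in the authors' deposited table was -0.82 ± 0.13 (SE), with an interval from -1.07 to -0.57, a mean count of 2320 and an adjusted p of 1.06e-06 (DESeq2-type test). That is 0.566 times the wild-type level on the deposited scale. Klf13, a Krüppel-like transcription factor, fell by 0.42 ± 0.07 (SE, log2) in the authors' deposited table, where its mean count is 1575 and its adjusted p 5.96e-05. Its fold change is about the size of that of its relative Klf9 (-0.42), but the smaller SE of Klf13 put it past the threshold and Klf9 (adjusted p = 0.217) not.

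Among the signalling genes, Pik3ip1, a membrane protein that inhibits PI3K, fell by 0.66 ± 0.10 (SE, log2) in the authors' deposited table, where its mean count is 1002 and its adjusted p 1.30e-06. Cblb, a ubiquitin ligase that restrains receptor and PI3K signalling, fell by 0.49 ± 0.12 (SE) there, with an adjusted p of 0.0343. Spsb1, a SOCS box adaptor that brings substrates to a ubiquitin ligase, fell by 0.54 ± 0.13 (SE) there, with an adjusted p of 0.0290. When the deposited p-values were adjusted over all 17973 genes that have one, Spsb1 (adjusted p = 0.0562) and Cblb (adjusted p = 0.0665) no longer passed, and the other 6 did. The gene listed as 8430408G22Rik, whose current symbol is Depp1 and which FOXO factors induce, fell by 0.48 ± 0.11 (SE, log2) in the authors' deposited table, where its mean count is 11705 and its adjusted p 0.0181.

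Of the genes that rose, Apold1, an early-response gene of endothelial cells, had the larger log2 fold change, listed as 0.60 ± 0.13 (SE) in the authors' deposited table. Its mean count of 114 is the lowest among the 8 genes, and its adjusted p was 0.00552. Lama4, the laminin alpha 4 chain of basement membranes around vessels and adipocytes, rose by 0.32 ± 0.07 (SE) there, at a mean count of 1361 and an adjusted p of 0.0181. As percentages of the wild-type level, the deposited changes are 51.2% and 25.2% upwards for Apold1 and Lama4, and from -25.2% (Klf13) to -43.4% (Zbtb16) for those that fell.

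The sizes depend on the drawing towards 0. Zbtb16, Apold1 and Spsb1 have an SE near the ceiling of 0.127 that no gene in the authors' deposited table exceeds. If the values came from a normal prior centred on 0, that ceiling is 1/2 of the prior's standard deviation, and the prior can be undone. Each SE then has 2 solutions, with more or with less information on the gene, which lie close together only near the ceiling. With the larger information the log2 fold change would be -1.64 for Zbtb16, 1.07 for Apold1, -0.94 for Spsb1, -0.46 for Klf13 and 0.36 for Lama4. With the smaller it would be -1.65, 1.34 and -1.24 for the first 3, but -4.42 for Klf13 and 3.54 for Lama4. The table does not say which solution holds for a gene, so the order of the called genes by size is that of the deposited scale only. The order by Wald statistic and by p does not depend on this step.

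The altered gene itself showed no such difference. In the authors' deposited table Ppargc1a stood at 0.0016 ± 0.11 (SE) on the log2 scale, with an interval from -0.21 to 0.22 and a mean count of 894. With the prior undone, the interval would run from -0.28 to 0.28 at the larger information and from -0.88 to 0.90 at the smaller. The count covers the whole gene and so carries no check of the allele. The 10 genes on either side of Ppargc1a on chromosome 5, by their order in the GRCm38.p6 annotation, had log2 fold changes from -0.13 to 0.22 with a median of -0.0087. Of these 20 genes, 0 had an unadjusted p under 0.05. The highest was Sod3, an extracellular superoxide dismutase, at 0.22 (unadjusted p = 0.0537 in the authors' deposited table).

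The genes next in order by p did not pass and are given as values. In the authors' deposited table Ucp3, a mitochondrial carrier related to UCP1, had 0.33 ± 0.08 (SE) on the log2 scale (adjusted p = 0.0744). Dio2, the deiodinase that activates thyroid hormone inside brown adipocytes, had 0.48 ± 0.12 (SE) and an adjusted p of 0.0990 there. Ppara, the nuclear receptor for fatty acids and a partner of PGC-1alpha, had 0.41 (adjusted p = 0.321), and Irs1, the docking protein of the insulin receptor, had 0.34 (adjusted p = 0.291). Others above 0 were Lrrc32, a docking receptor for latent TGF-beta, at 0.47, the zinc finger factor Rreb1 at 0.45 and Ppp1r15b, a subunit of the eIF2alpha phosphatase, at 0.33. Wdr6 (0.42), Mmd2 (0.42), Ltbp2 (0.35), Fgfrl1 (0.32) and Aplp2 (0.25) complete the 12 genes on that side.

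On the lower side, Sox4, a transcription factor of progenitor cells, had -0.49 ± 0.13 (SE) in log2 terms in the authors' deposited table (adjusted p = 0.0990). Foxo1, the insulin-regulated forkhead factor, had -0.41 (adjusted p = 0.291), and Lifr, a cytokine receptor, had -0.41 (adjusted p = 0.393). The hypoxia factor gene Hif3a (-0.41), the exocytosis calcium sensor gene Doc2b (-0.41) and the orphan receptor gene Mrgprg (-0.44) have no adjusted p in the authors' deposited table. The others were Klf9 (-0.42), Prg4 (-0.41), Cbx2 (-0.37), Ip6k2 (-0.35), Rsrp1 (-0.34) and Aspg (-0.29). The plot of intervals sets these 24 genes, chosen by small p, beside the 8 that passed after adjustment.

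**Figure D2:**
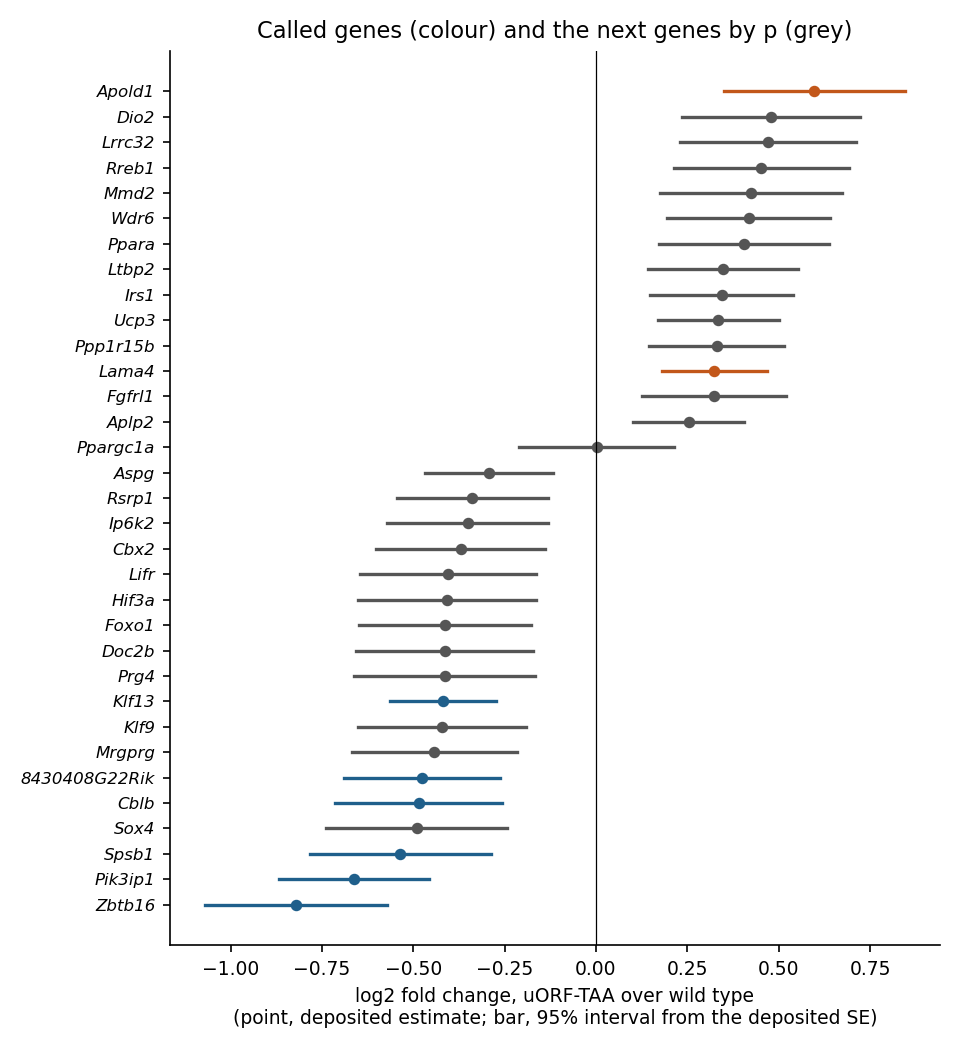
Deposited log2 fold changes (points) with 95% intervals from the deposited SE (bars) for Ppargc1a, the 8 genes with an adjusted p under 0.05 (coloured) and the 12 next genes by p in each direction with a mean count of at least 50 (grey). Ppargc1a is the gene whose interval, -0.21 to 0.22, spans 0, and Klf13 and Lama4 have shorter bars than genes of like fold change.

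Most genes lay close to 0 on the deposited scale. Over the 17973 genes with a p-value in the authors' deposited table, the median log2 fold change was 0.0015, and 95% of genes lay between -0.17 and 0.17. These include 2391 genes with a mean count under 1, all between -0.06 and 0.07 at a median SE of 0.018. Part of this closeness may therefore be the drawing towards 0. Of them 9195 were above 0 (51.2%) and 8778 below, 47 were above 0.3 and 49 below -0.3. Only 3 genes, Zbtb16, Pik3ip1 and Apold1, lay beyond 1.5-fold on that scale. An unadjusted p under 0.05 was reached by 372 genes (2.07%), 165 higher (0.918%) and 207 lower (1.15%) in uORF-TAA. That is fewer than the fraction of 0.05 that evenly spread p-values would give. At mean counts of 100 to 1000, 73 higher and 111 lower of 6865 genes reached it, also fewer than that fraction. An unadjusted p alone therefore does not mark a gene as changed. The share above 0 was 44.3% for genes with a mean count under 1 and 68.8% for the 157 genes with a mean count of 10000 or more, whose median was 0.04.

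The genes with the largest mean counts in brown fat are mostly genes of fat metabolism, and 0 of the 10 had an unadjusted p under 0.05. In the authors' deposited table Scd1, a fatty acid desaturase, had -0.17 ± 0.13 (SE, log2). The fatty acid binding protein gene Fabp4 had 0.10, the lipoprotein lipase gene Lpl 0.10, the gluconeogenic enzyme gene Pck1 0.06 and the fatty acid synthase gene Fasn -0.02. The ATP synthase subunit gene Atp5b had 0.04. Gpx3 (0.08), Glul (-0.04) and the ribosomal precursor Rn45s (-0.12) are also among the 10.

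The gene lists used below hold 1457 genes in 66 lists and share members. A list is described by the sign and median of its members, beside the median of 0.0015 and the 51.2% above 0 over all genes, and no list was tested. Counts at an unadjusted p under 0.05 stand beside the 2.07% of all genes that reach it, 0.918% higher and 1.15% lower. All 8 called genes are in at least 1 list, since some lists were built around them, so their count over the lists says nothing more.

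Heat-producing genes leaned above 0 without passing. Of 28 thermogenic effector genes 23 were above 0, with a median log2 fold change of 0.06, 0 called, and 2 with an unadjusted p under 0.05, Dio2 and Ucp3. Of the 28, 25 have a mean count of at least 100, where 52.7% to 68.8% of all genes were above 0, depending on count. General adipocyte genes leaned likewise, with 19 of 24 above 0 and a median of 0.07. Ucp1 itself had 0.08 ± 0.13 (SE) in the authors' deposited table, and Cidea, a lipid droplet protein of brown fat, had 0.04 ± 0.11 (SE). Among 33 genes known as PGC-1alpha targets 27 were above 0, with a median of 0.04, and the same Dio2 and Ucp3 with Ppara are the 3 of unadjusted p under 0.05. The targets Pdk4, the kinase that shuts off pyruvate dehydrogenase, and Sod2, the mitochondrial superoxide dismutase, had -0.14 and 0.15 in the authors' deposited table.

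The lists of regulators around PGC-1alpha had medians nearer to 0, with single members farther out. Of 29 PGC-1 coactivators, partners and cofactors 12 were above 0, with a median log2 fold change of -0.02, and Ppara (0.41) is the 1 member with an unadjusted p under 0.05. Ppargc1b, the related coactivator, had 0.15 ± 0.11 (SE), Pparg -0.11 ± 0.11 (SE) and Nrf1, a regulator of nuclear genes for respiration, -0.12 ± 0.11 (SE) in the authors' deposited table. Of 18 brown adipocyte transcription factors 7 were above 0, and 2 had an unadjusted p under 0.05, Sox4 and Zic1 (-0.30 ± 0.12, SE). Ebf2, which selects brown adipocyte genes, had 0.00 and Irf4, a partner of PGC-1alpha in thermogenesis, had -0.06 there. In the adrenergic and cAMP list 18 of 28 were above 0 with a median of 0.03. Of these, Adcy5, an adenylyl cyclase, had 0.28 (unadjusted p = 0.0248 in the authors' deposited table).

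Thyroid hormone genes did not move one way. Of 14 members 9 were above 0, with 3 above 0 and 1 below 0 at an unadjusted p under 0.05 and 0 called. Beside Dio2, these are Thrsp, a lipogenic gene that responds to thyroid hormone, at 0.34 ± 0.12 (SE), the retinoid receptor gene Rxrg at 0.26 and Klf9 at -0.42 in the authors' deposited table.

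Genes of mitochondrial oxidation were above 0 in most cases, each by less than its interval. Many have high counts, where the share above 0 over all genes is also higher. That share was 52.7% at mean counts of 100 to 1000, 55.3% at 1000 to 10000 and 68.8% at 10000 or more. Of 80 subunits of respiratory complexes I to V 67 were above 0, but the whole range ran from -0.09 to 0.11 on the log2 scale with a median of 0.03, and 0 had an unadjusted p under 0.05. By complex, 31 of 35 subunits of complex I were above 0, 9 of 9 of complex III, 11 of 15 of complex IV and 13 of 17 of complex V. The highest, Uqcrc1 of complex III, had 0.11 ± 0.10 (SE) in the authors' deposited table. Fatty acid oxidation had 24 of 25 above 0 (median 0.05), the citrate cycle 20 of 22 (median 0.05) and mitochondrial ribosomal proteins 61 of 77 (median 0.03), with 0 at an unadjusted p under 0.05 in each. Cpt1a, the outer membrane carnitine transferase, had the largest value among the oxidation genes, 0.22 ± 0.11 (SE) in the authors' deposited table. Cytosolic ribosomal proteins, whose near-identical copies may share reads, had 29 of 79 above 0 and a median of -0.01.

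Lipid genes were mixed. General adipocyte genes had 19 of 24 above 0 with a median log2 fold change of 0.07. Dgat1, the enzyme of the last step of triglyceride synthesis, had 0.27 ± 0.11 (SE) and the glycerol channel gene Aqp7 0.27 ± 0.11 (SE) in the authors' deposited table, the 2 of unadjusted p under 0.05. In de novo lipogenesis 13 of 23 were above 0, with Thrsp, Dgat1 and Agpat2 (0.28) above 0 and the phosphatidate phosphatase gene Lpin1 (-0.26) below 0 at an unadjusted p under 0.05. Ffar4, a receptor for long-chain fatty acids, had 0.41 ± 0.13 (SE) in the authors' deposited table.

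**Figure D3:**
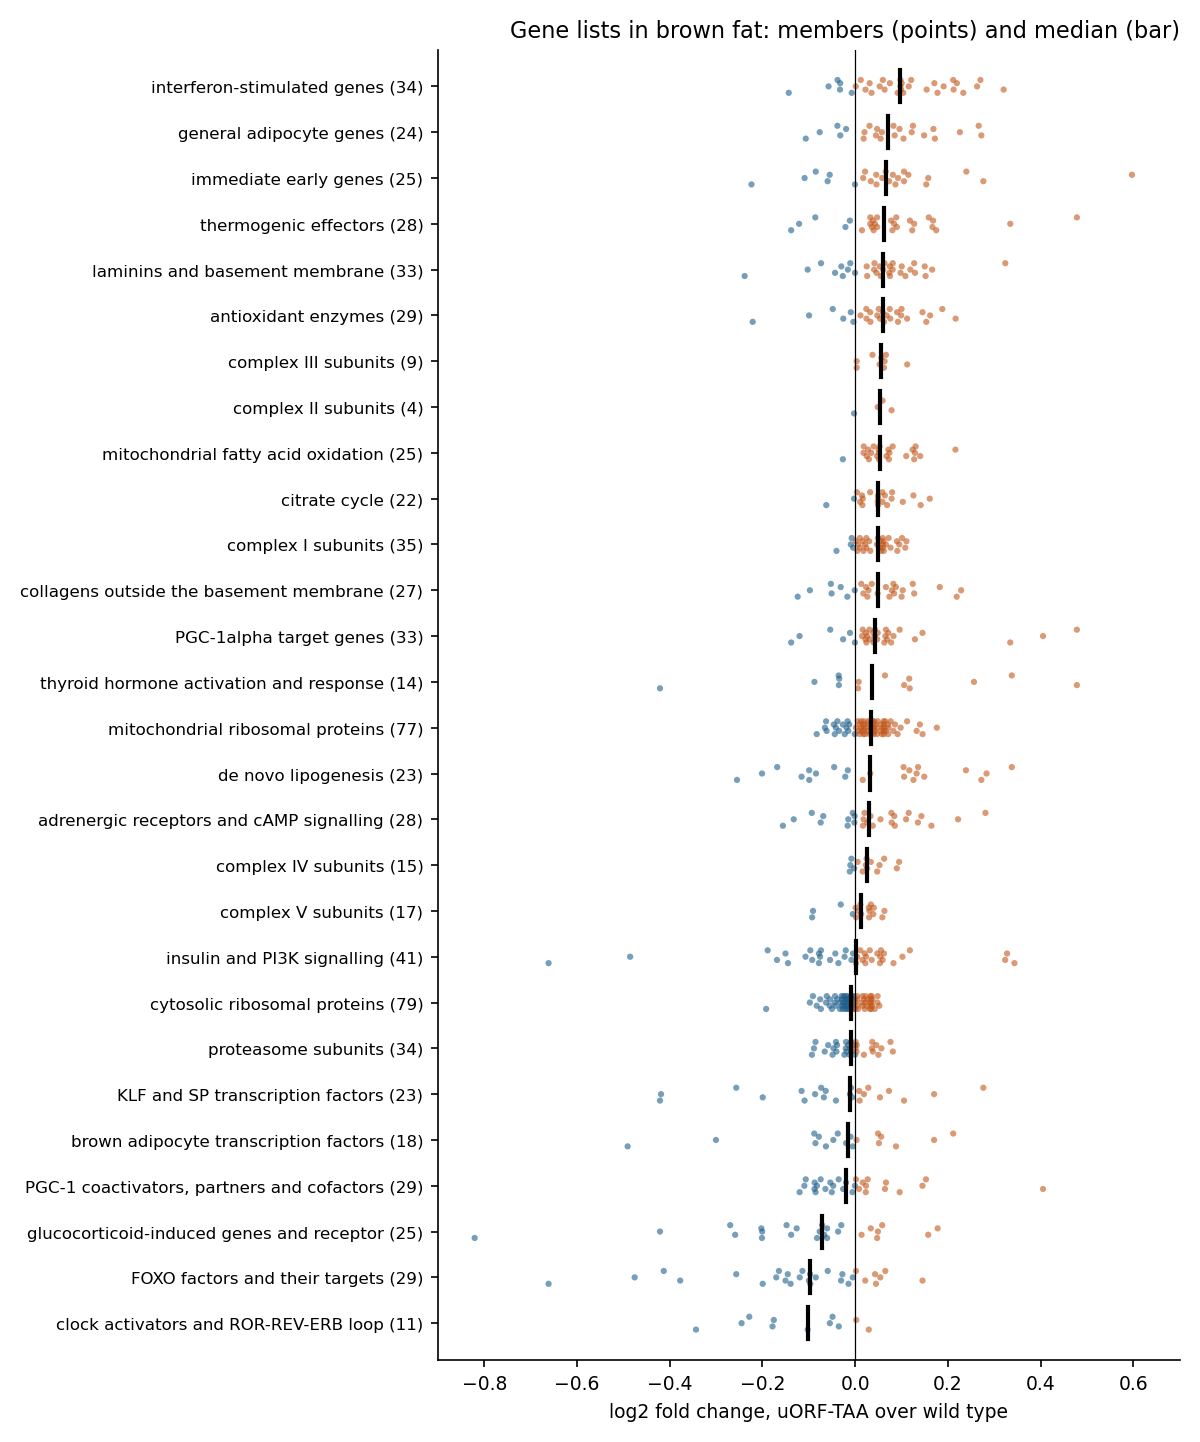
Log2 fold changes in brown fat, uORF-TAA over wild type, of the members of 28 gene lists (points, orange above 0 and blue below) with the median of each list (black bar) and the number of members with a p-value in brackets. Lists of mitochondrial oxidation sit in a narrow band just above 0, while the FOXO and clock activator lists have medians of -0.10.

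Of the lists that hold genes that fell, those of FOXO and glucocorticoid genes had the lowest medians. Of 29 FOXO factors and targets 22 were below 0, with a median log2 fold change of -0.10, which stays at -0.10 without the 2 called genes Pik3ip1 and 8430408G22Rik. An unadjusted p under 0.05 was reached by 5 of the 29, all below 0, where 1.15% of all genes were lower at that p. They are the 2 called genes, Foxo1, the stress protein gene Sesn1 (-0.38 ± 0.13, SE) and Klf15 (-0.26 ± 0.13, SE) in the authors' deposited table. Targets of FOXO1 in metabolism differed in sign, with Pck1 at 0.06 and Bnip3, a mitophagy receptor, at -0.10 in the authors' deposited table.

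Glucocorticoid-induced genes and the receptor had 18 of 25 below 0 and a median of -0.07, with 1 called, Zbtb16. At an unadjusted p under 0.05 were also Klf9, Map3k6 (-0.27) and Lcn2 (-0.26) in the authors' deposited table. Other well-known targets lay on both sides. Fkbp5, a chaperone that restrains the receptor, had -0.20 and Tsc22d3, the mediator GILZ, -0.13, while Sgk1, a kinase, had 0.18 and Dusp1, a phosphatase, 0.16 in the authors' deposited table. The receptor gene Nr3c1 had 0.05 there. Fkbp5, Tsc22d3, Sgk1 and Nr3c1 were chosen for naming after their values were seen.

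In insulin and PI3K signalling 21 of 41 members were above 0. Here 2 inhibitors fell, Pik3ip1 and Cblb. Members that carry the signal, Irs1, the regulatory subunit gene Pik3r3 (0.33 ± 0.13, SE) and the adaptor gene Sh2b2 (0.32 ± 0.12, SE), had unadjusted p under 0.05 and did not pass after adjustment in the authors' deposited table. The central kinase gene Akt2 had 0.06, and the glucose transporter gene Slc2a4 had 0.08 there. Inppl1, an inositol phosphatase and another brake on this pathway, had -0.04 in the authors' deposited table. Brakes as a list did not fall: of 24 Cbl and other PI3K or receptor brakes 14 were above 0, with a median of 0.0053. Without Pik3ip1 and Cblb, 14 of 22 were above 0, with a median of 0.015.

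The families of the other called genes lay on both sides of 0. Among 23 KLF and SP factors 9 were above 0, with Klf9, Klf13 and Klf15 below 0 and Klf4 (0.28) above 0 at an unadjusted p under 0.05 in the authors' deposited table. Of 39 ZBTB factors 21 were above 0, and of 21 SPSB and SOCS box adaptors 10 were. Of 33 laminin and basement membrane genes 24 were above 0 with a median of 0.06. Hspg2, the proteoglycan perlecan, had 0.17 ± 0.12 (SE) and the collagen IV chain gene Col4a1 0.07 ± 0.10 (SE) in the authors' deposited table, and Lama4 is the 1 member called.

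Clock genes were measured at an unstated time of day. Of 11 clock activators and members of the ROR and REV-ERB loop 9 were below 0, with a median log2 fold change of -0.10 and 0 called. Nr1d1, which encodes REV-ERBalpha, had -0.34 ± 0.12 (SE) and Rora -0.25 ± 0.11 (SE) in the authors' deposited table, with unadjusted p of 0.00473 and 0.0329. The activator genes Arntl and Clock had -0.18 and 0.03, and the repressor gene Per1 had -0.06 there.

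Immune and stress genes gave no call other than Apold1, which is also in the immediate early list. Interferon-stimulated genes had 28 of 34 above 0, with a median log2 fold change of 0.10 and 3 of unadjusted p under 0.05, Irf7 (0.32), Igtp (0.27) and Bst2 (0.26) in the authors' deposited table. Immediate early genes had 19 of 25 above 0. Endoplasmic reticulum stress genes had 13 of 21 above 0, with Herpud1, which takes part in removal of misfolded proteins, at -0.35 ± 0.12 (SE) and the sensor gene Ern1 at -0.26 in the authors' deposited table. Proteasome subunits lay between -0.09 and 0.08 on the log2 scale, 13 of 34 above 0. Of 84 splicing factors and nuclear-retained RNAs 52 were below 0. The 5 of unadjusted p under 0.05 were Rsrp1, the nuclear RNA Neat1 (-0.28), Rbm48, Clk4 and Rsrc2, all below 0.

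Cell type markers were read in the same way. Brown adipocyte markers were present throughout, with 12 of 12 at mean counts of 182 to 47561. Of these 11 were above 0, with a median of 0.05, and the exception was Zic1. Among 20 endothelial markers, Apold1 included, 14 were above 0 and 6 below, with a median of 0.03. The lowest was Flt1 at -0.17. The defining endothelial genes Pecam1, Cdh5 and Kdr had 0.01, 0.06 and 0.10 in the authors' deposited table, and the tight junction gene Cldn5 had 0.27 ± 0.13 (SE, unadjusted p = 0.0348). Apold1 lay above all the other 19. In whole tissue, fewer cells of a type and less RNA per cell cannot be told apart. Fibroblast markers had 7 of 14 above 0, smooth muscle and pericyte markers 9 of 15 and macrophage markers 6 of 15. Schwann cell markers had 3 of 15 above 0 and a median of -0.06. Sympathetic neuron markers had 2 of 12 above 0, at mean counts of 0.368 to 27.1. The summed level of each list per group was not analysed here, and its part in any gene's difference was not tested.

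**Figure D4:**
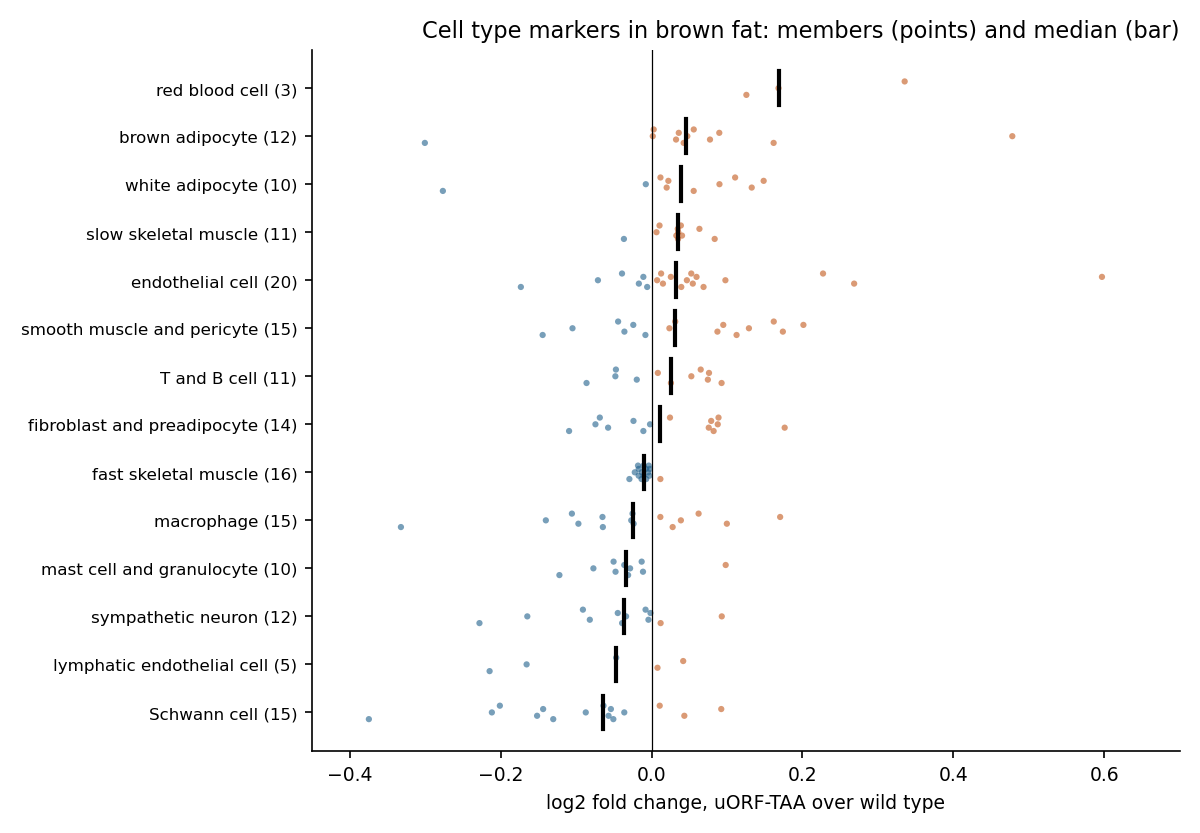
Log2 fold changes in brown fat, uORF-TAA over wild type, of cell type markers (points, orange above 0 and blue below), with the median of each list (black bar) and the number of markers with a p-value in brackets. Medians lie between -0.06 and 0.17, the fast muscle markers are packed within 0.03 of 0, and the endothelial point far to the right is Apold1.

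Skeletal muscle RNA was also counted in these libraries. All 27 fast and slow muscle markers had a p-value, at mean counts of 74.3 to 42699, with log2 fold changes between -0.04 and 0.08. Myh4, a fast myosin, had -0.0037 ± 0.08 (SE), and Acta1, skeletal actin, had -0.0023 ± 0.07 (SE) in the authors' deposited table. These markers stand apart by their SE. Of the 26 with a mean count of at least 100, 22 had an SE under 0.07 (84.6%), against 109 of all 9386 genes of that count (1.16%), and 13 of the 50 smallest SEs in that range are theirs.

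A small SE at these counts has the same 2 readings if the values were drawn towards 0 by a prior. It comes either from much information on the gene, or from so little that the estimate was held at 0. For Myh4 the undone interval would run from -0.17 to 0.16 in the first reading and from -1.56 to 1.48 in the second. For Ucp1, whose SE lies at the ceiling, it would run from -0.33 to 0.63 or from -0.36 to 0.68. The table alone cannot tell these apart, so a value near 0 for a muscle marker does not show equal amounts of muscle RNA in both genotypes. The plot of SE against mean count sets these markers beside the called genes, of which Klf13 and Lama4 have the smallest SE, 0.07 each.

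**Figure D5:**
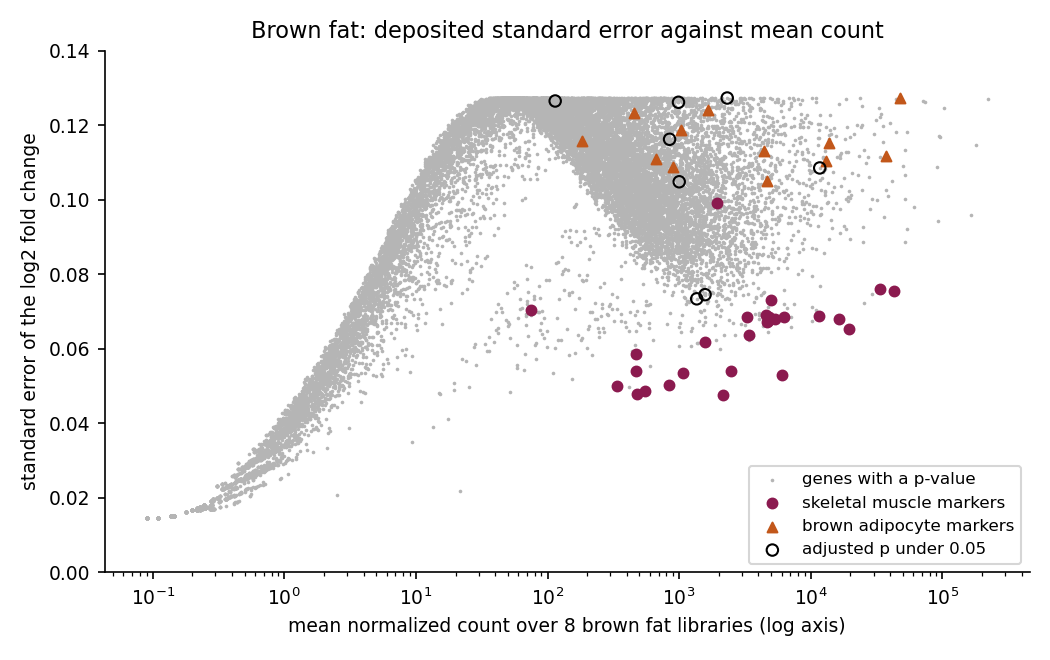
Deposited SE of the log2 fold change against the mean normalized count over 8 brown fat libraries (log axis), with 1 grey point per gene with a p-value, skeletal muscle markers as circles, brown adipocyte markers as triangles and the 8 called genes ringed. No gene exceeds 0.127, SE falls towards 0 at low counts, and 22 of 26 muscle markers with a mean count of at least 100 lie under 0.07.

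How much stayed flat can be stated only on the deposited scale. Of 9386 genes with a mean count of at least 100, 7249 (77.2%) had an interval that lay wholly within 0.32 of 0 on the log2 scale. With the prior undone at the larger information for every gene 3370 did, and at the smaller information for every gene 0 did. On the deposited scale this held for 35 of 35 complex I subunits, 34 of 34 proteasome subunits and 12 of the 25 thermogenic effectors of that count. Among 21 reference genes used to scale RNA measurements, 18 met it, and Actb (0.22 ± 0.09, SE) and B2m (0.26 ± 0.11, SE) had an unadjusted p under 0.05 in the authors' deposited table, while Eef2 and Gapdh had 0.00 and -0.04.

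Quadriceps was set beside brown fat for the called genes only. For quadriceps, 0 genes of its table had an adjusted p under 0.05 (DESeq2-type test) and 350 of 17521 had an unadjusted p under 0.05. Zbtb16 had -0.22 ± 0.12 (SE, log2) there, Pik3ip1 -0.14, Spsb1 -0.22 and Apold1 0.23, while Klf13 (-0.06), 8430408G22Rik (-0.03), Lama4 (0.02) and Cblb (-0.0025) lay near 0 in the authors' deposited table. The sign was that of brown fat for 8 of 8 genes under the assumed reading of each table, which name the genotypes in opposite orders. For the genes near 0 in quadriceps the sign carries little. The share of all genes with the same sign in both tissues is not given here, so the 8 are not read as a repeat of the result. The difference between tissues was tested per gene over 16844 genes, treating the tissues as independent. It passed for 0 genes (smallest adjusted p = 0.905), with 195 at an unadjusted p under 0.05. Under this reading no gene was shown to change in brown fat and not in muscle. Were the reading wrong for brown fat alone, the 8 signs would be opposite and the differences of these genes larger. The test was not run under that reading.

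Promoters are shown for 3 genes: Pik3ip1 and 8430408G22Rik (Depp1), which are FOXO-induced genes that fell together, and Dio2, the thermogenic effector with the highest fold change, whose window holds a searched motif. These 3 were chosen after their values were seen. Sequences are the 250 bases before the annotated start from RefSeq on GRCm38.p6, read 5′ to 3′ on the gene's strand, with the cAMP response element TGACGTCA in capitals. Pik3ip1 lies at chr11:3330481-3330730 (plus strand), Depp1 at chr6:116650434-116650683 (plus strand) and Dio2 at chr12:90739039-90739288 (minus strand).
Pik3ip1: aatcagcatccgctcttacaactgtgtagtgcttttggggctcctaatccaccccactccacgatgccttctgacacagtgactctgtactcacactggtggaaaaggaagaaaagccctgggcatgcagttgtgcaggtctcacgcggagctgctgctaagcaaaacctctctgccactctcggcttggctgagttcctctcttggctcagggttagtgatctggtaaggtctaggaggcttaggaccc
Depp1: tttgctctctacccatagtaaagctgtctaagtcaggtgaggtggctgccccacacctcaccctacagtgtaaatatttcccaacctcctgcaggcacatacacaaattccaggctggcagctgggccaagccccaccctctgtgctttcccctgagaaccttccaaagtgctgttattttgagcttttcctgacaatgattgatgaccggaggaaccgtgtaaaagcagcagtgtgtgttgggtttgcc
Dio2: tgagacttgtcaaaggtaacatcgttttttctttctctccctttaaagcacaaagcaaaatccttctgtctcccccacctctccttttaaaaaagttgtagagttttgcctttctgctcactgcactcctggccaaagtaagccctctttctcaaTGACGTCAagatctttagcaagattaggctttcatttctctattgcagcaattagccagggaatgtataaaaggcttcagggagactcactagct
The motifs searched on both strands were the FOXO core GTAAACA, the glucocorticoid receptor half-site AGAACA, the E-box CACGTG, the estrogen-related receptor element TCAAGGTCA, the cAMP response element TGACGTCA and the D-box TTATGTAA. They occur in 3.09%, 16.2%, 6.05%, 0.366%, 1.62% and 0.862% of all 27025 RefSeq promoter windows of this length. Of the 8 called genes 6 had such a window (not Zbtb16 or Lama4), and 0 of these 6 held any of the motifs. In Dio2 the cAMP response element began 95 bases before the start. This element occurs in 336 of the 13789 windows of genes measured in brown fat. The windows of Ucp3, Ppara and Foxo1, which were also taken, held none of the motifs. A match here is a description of the letters, and its absence says only that these letters are not in the window.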

How the data were processed

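Brown fat mRNA of 4 uORF-TAA and 4 wild-type mice was analysed from the authors' comparison table, with the quadriceps table set beside it for the called genes. STAR 2.5.1b, DESeq2 1.10.1 and the build mm9 are named, per the submitters' processing notes, with no role. The annotation, the counter of reads and its strand setting were not given in the sources used here. Overlapping genes and near-identical copies may therefore share reads. Per the file headers, the authors give a mean normalized count, a signal over all 8 libraries. Fold change and SE were deposited as log2 values. As a score, the authors give the Wald statistic, fold change over SE. From this score come the deposited p-value and its adjusted form, and recomputing all 3 returned them to rounding.

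An adjusted p is listed for 9272 of the 17973 genes with a p-value, those with a mean count of 105.6 or more, and 27 genes have no p-value. The deposited test was used as it stands, at an adjusted p of 0.05, since counts per library were not analysed here. Depth per library, estimated from genes with a single read in 1 library, was 11.0 to 17.8 M counts (M, mega; median 11.7), with size factors of 0.859 to 1.39 not assigned to samples. This number of animals and depth limit which differences could pass, and p-values cover the spread between these libraries.

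The deposited SE never exceeds 0.127 and falls towards 0 at low counts, as a normal prior centred on 0 would give. That is inferred from the values, with an implied prior SD of 0.255, and no header states it. The sign of the brown fat table was turned by the order in its name.

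Genes were named by rule: Ppargc1a, the called genes, the next 12 per direction by p (minimum mean 50), up to 5 members per list by p and 5 by mean, 10 neighbours on either side of Ppargc1a and the 10 largest mean counts. A few genes named by this rule are not reported here. Members and lists were chosen with earlier results of these data known. Alternatives were other thresholds, adjustment over other gene sets, other bounds and minimum means for narrow intervals, and list medians over other members. Procedures were tested on simulated data. Python 3.11.15, numpy 2.4.6, pandas 2.3.3 and scipy 1.17.1 were used.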

Additional observations from a re-analysis of the deposited data

How the results depend on the processing

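No paired analysis was possible because the authors' deposited table holds no value per library, and for the same reason another normalization, a low-count filter on libraries and leaving out a replicate were not run. Genes that rose numbered 2 at an adjusted p of 0.05, 1 at 0.01 and 4 at 0.10, and those that fell numbered 6 and, at 0.01, 3 (deposited DESeq2-type test). At 0.01 Lama4, 8430408G22Rik, Spsb1 and Cblb no longer passed. With adjustment across all genes that have a p-value, Spsb1 and Cblb no longer passed. With 7249 genes of narrow interval in the main setting, a bound of 1.1-fold left 38, a minimum mean of 1000 left 2107 by having fewer genes to count, and undoing the prior left 3370 at the larger and 0 at the smaller information. The last 2, and the fold changes with the prior undone, depend on a prior that was inferred and were partly added after the data were seen. Medians of the 66 lists changed by at most 0.0015 when set against the median of all genes, with 0 changes of sign, and by at most 0.01 without the called genes, with 1. Over members with a mean of at least 50 the sign changed for 2 of 64 lists, whose medians were within 0.0062 of 0. The largest change there, 0.17, was in the red blood cell markers, where Alas2 alone was left. The reading of which genotype is the numerator decides every direction and the comparison with quadriceps. It could not be checked, since the mRNA level of Ppargc1a does not mark the allele.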
